A study of Homo sapiens with 12 samples.

Results

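The genes described here belong to the feedback circuit of canonical WNT signalling: the R-spondin receptor genes LGR4 and LGR5, the ubiquitin ligase genes RNF43 and ZNRF3, the inhibitor genes AXIN2, NKD1 and DKK1, and the transcription factor genes LEF1, TCF7 and ASCL2. These 10 genes were fixed by name, with earlier results of these data known, so their counts are no independent test against the shares of all genes. Each was read from the probe set that carries its symbol alone. A value was found for 9 of them, out of 18417 genes measured, and each of the 9 had a single such probe set. TCF7 was not analysed here. Expression was measured on 12 Affymetrix arrays of human pancreatic ductal adenocarcinoma cell lines, 3 arrays for each of 4 groups: AsPC1-R, a derivative of AsPC1 with resistance to cisplatin, its parental line AsPC1, the resistant derivative BxPC3-R, and its parental line BxPC3. Cisplatin, a chemotherapy drug built on platinum, binds DNA and links its bases. The medium of AsPC1-R held cisplatin at 1.67 µM and that of BxPC3-R at 0.60 µM, and both derivatives were without the drug in the last subculture before harvest. There is 1 derivative per line, and the labels do not say whether it is a clone or whether the 3 samples of a group were separate cultures, so the p-values speak of the spread between these samples alone, which may be technical.

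WNT proteins bind Frizzled receptors together with LRP5 or LRP6, and this stops a complex built on AXIN proteins from destroying β-catenin, which then switches on genes together with the TCF and LEF transcription factors. Several of those genes act back on the signal: AXIN2 rebuilds the destruction complex, NKD1 acts on the Dishevelled proteins, DKK1 is secreted and blocks LRP5 and LRP6, and RNF43 and ZNRF3 remove Frizzled receptors from the cell surface. LGR4 and LGR5 bind R-spondins and thereby take RNF43 and ZNRF3 away, which prolongs the signal. In the intestine of mice, LGR5 and ASCL2 mark and maintain the stem cells of the crypt, and in the mouse pancreas Lgr5 appears in duct cells after injury.

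RefSeq entries for the sequence before the transcription start (GRCh38.p14) were at hand for 4 of the 9 genes, LGR4, LEF1, DKK1 and RNF43, in 5 windows, since RNF43 had 2 starts. The windows of LGR4 and DKK1 and one of RNF43 end at the gene's outer start in the same annotation, while that of LEF1 and the other of RNF43 lie before a start inside the gene. DKK1 and LEF1 are shown because they were the 2 genes that rose in BxPC3-R. Capitals mark the heptamers CTTTGAA or CTTTGAT or CTTTGTA or CTTTGTT, the forms of the TCF/LEF core that were searched on both strands in the 250 bases before the start, and lower case marks all other bases.
DKK1, chr10:52314031-52314280, plus strand: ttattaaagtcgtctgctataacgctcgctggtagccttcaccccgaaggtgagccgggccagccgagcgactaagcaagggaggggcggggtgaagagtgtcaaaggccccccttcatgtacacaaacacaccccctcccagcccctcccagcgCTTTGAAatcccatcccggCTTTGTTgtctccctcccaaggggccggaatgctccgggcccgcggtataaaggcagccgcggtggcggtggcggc
LEF1, chr4:108166302-108166551, minus strand: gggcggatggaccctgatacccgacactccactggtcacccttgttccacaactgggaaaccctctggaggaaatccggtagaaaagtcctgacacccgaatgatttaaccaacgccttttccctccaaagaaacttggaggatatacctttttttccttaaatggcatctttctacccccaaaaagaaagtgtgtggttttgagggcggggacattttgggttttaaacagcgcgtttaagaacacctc
In the DKK1 window CTTTGAA begins 95 bases and CTTTGTT 76 bases before the start, and the 2 do not overlap. None of the 4 heptamers was found in the windows of LEF1, LGR4 and RNF43. Of 35116 windows of this length in the RefSeq table, 11.96% held at least 1 of the 4 heptamers. A match describes these letters and is not a shown binding site.

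Levels are log2 values from robust multi-array averaging (RMA), which adjusts the arrays to 1 distribution, and differences are log2 changes with the standard error (SE) from limma, fitted across all genes. A gene is said to rise, fall or differ at a Benjamini-Hochberg adjusted p under 0.05. Array medians lay between 6.48 and 6.65, and replicates correlated at 0.9908 to 0.9972 over genes. Precision is limited by having 3 arrays a group. No blank reading was available. BxPC3 lacks SMAD4 and CDKN2A by deletion, and its arrays still gave them 4.70 and 6.22, so the sizes of differences between levels in that range are uncertain, which touches LGR5 in BxPC3 and BxPC3-R and, in part, AXIN2, NKD1, RNF43, ASCL2 and LEF1. The array BxPC3 replicate 2 stood apart: of the 50 genes that exceeded their BxPC3-R level most in AsPC1, 50 had their highest BxPC3 value on it, which held for 41.7% of all genes, and the median excess over the other BxPC3 arrays was 0.83, against 0.03 for all genes. This array enters each comparison with BxPC3 and, through the shared spread, the others, so values without it are given where a call, a direction or a count changes. Of the epithelial markers, 9 of 9 measured reached the median of all values, 6.554, in every group. Markers of other cells were mixed. Of 10 leukocyte genes, PTPRC was the lowest, at group means of 3.19 to 3.27, while LCP1 read 12.74 in BxPC3-R and 12.81 in BxPC3 and CD68 read 10.83 in AsPC1-R and 10.11 in AsPC1. The summed log2 level of the leukocyte genes was 58.9 to 60.3 in AsPC1-R and 58.3 to 60.3 in AsPC1, and 62.7 to 64.8 in BxPC3-R and 64.6 to 66.6 in BxPC3. In this list 2 genes rose in AsPC1-R and 2 fell in BxPC3-R, 1 of the falls, CD3E, not without BxPC3 replicate 2 (adjusted p = 0.0786). Of 10 fibroblast genes, DCN was the lowest, at 3.83 to 4.10. LUM read 10.51 in AsPC1-R and 11.55 in AsPC1, but 6.45 in BxPC3-R and 4.91 in BxPC3. ACTA2 read 8.65 in AsPC1-R and 8.02 in AsPC1, but 8.07 in BxPC3-R and 9.48 in BxPC3. PDGFRA read 8.43 in BxPC3-R and 7.22 in BxPC3, and FAP read 5.39 and 4.66. The fibroblast genes summed to 64.6 to 65.2 in AsPC1-R and 65.2 to 66.7 in AsPC1, and to 62.8 to 64.2 in BxPC3-R and 60.3 to 62.3 in BxPC3. In this list 1 gene rose and 1 fell in AsPC1-R, where LUM fell by 1.03 (SE 0.22, adjusted p = 0.00409), and 3 rose and 1 fell in BxPC3-R. The sum of 8 endothelial genes was 46.1 to 46.9 in BxPC3-R, against 51.9 to 52.2 in BxPC3, and 45.8 to 46.6 in AsPC1-R and 45.2 to 47.6 in AsPC1. In BxPC3, CDH5, CLDN5, PECAM1 and TEK read 6.88 or more, ESAM read 6.04, and VWF, KDR and ERG read 4.94 to 5.28. CLDN5 read 7.29 in BxPC3-R as well, and 7.68 in AsPC1-R and 7.69 in AsPC1. In BxPC3-R CDH5 read 6.67, PECAM1 6.04 and TEK 5.17, against 9.34, 7.28 and 6.88 in BxPC3. Among the 8 endothelial genes 3 fell and none rose in BxPC3-R, and 1 rose and none fell in AsPC1-R. The markers of other cells that were high or moved were chosen for mention after their values were seen, and the part of such cells in the results was not tested.

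In AsPC1-R, 5 of the 9 genes fell against AsPC1 and none rose: DKK1, RNF43, NKD1, AXIN2 and LGR4. LGR5, LEF1, ASCL2 and ZNRF3 did not pass the test. Falls were called for 8.64% and rises for 11.6% of all genes tested. The median log2 change of the 9 genes was -0.353, against -0.050 for all genes. All 3 AsPC1-R arrays lay below all 3 AsPC1 arrays for 6 of the 9 genes, the 5 that fell and LGR5, which held for 17.3% of all genes. In BxPC3-R, LEF1 and DKK1 rose and none fell, where 9.75% of all genes rose and 11.0% fell, and the median change was 0.137 against 0.019 for all genes. All 3 BxPC3-R arrays lay above all 3 BxPC3 arrays for 4 of the 9, LEF1, DKK1, RNF43 and ASCL2, which held for 19.4% of all genes. Without BxPC3 replicate 2, LGR5 and RNF43 passed too, so that 4 rose in BxPC3-R, where 8.69% of all genes rose and 8.70% fell, and the median was 0.210 against 0.009 for all genes. The LGR5 rise, from 4.33 to 4.79, lies within the levels that deleted genes show. BxPC3 replicate 2 was singled out by genes high in AsPC1 over BxPC3-R, as LGR5 is, so leaving it out is not independent of LGR5. Without that array 6 fell in AsPC1-R, LGR5 added. The change in AsPC1-R lay below that in BxPC3-R for 6 genes when the difference itself was tested, DKK1, LEF1, RNF43, NKD1, AXIN2 and LGR4, and above it for none, where 11.3% of all genes lay below and 14.1% above, or 15.4% below and 12.3% above with the arrays centred on their medians. Without BxPC3 replicate 2 it lay below for 7, LGR5 added.

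**Figure D1:**
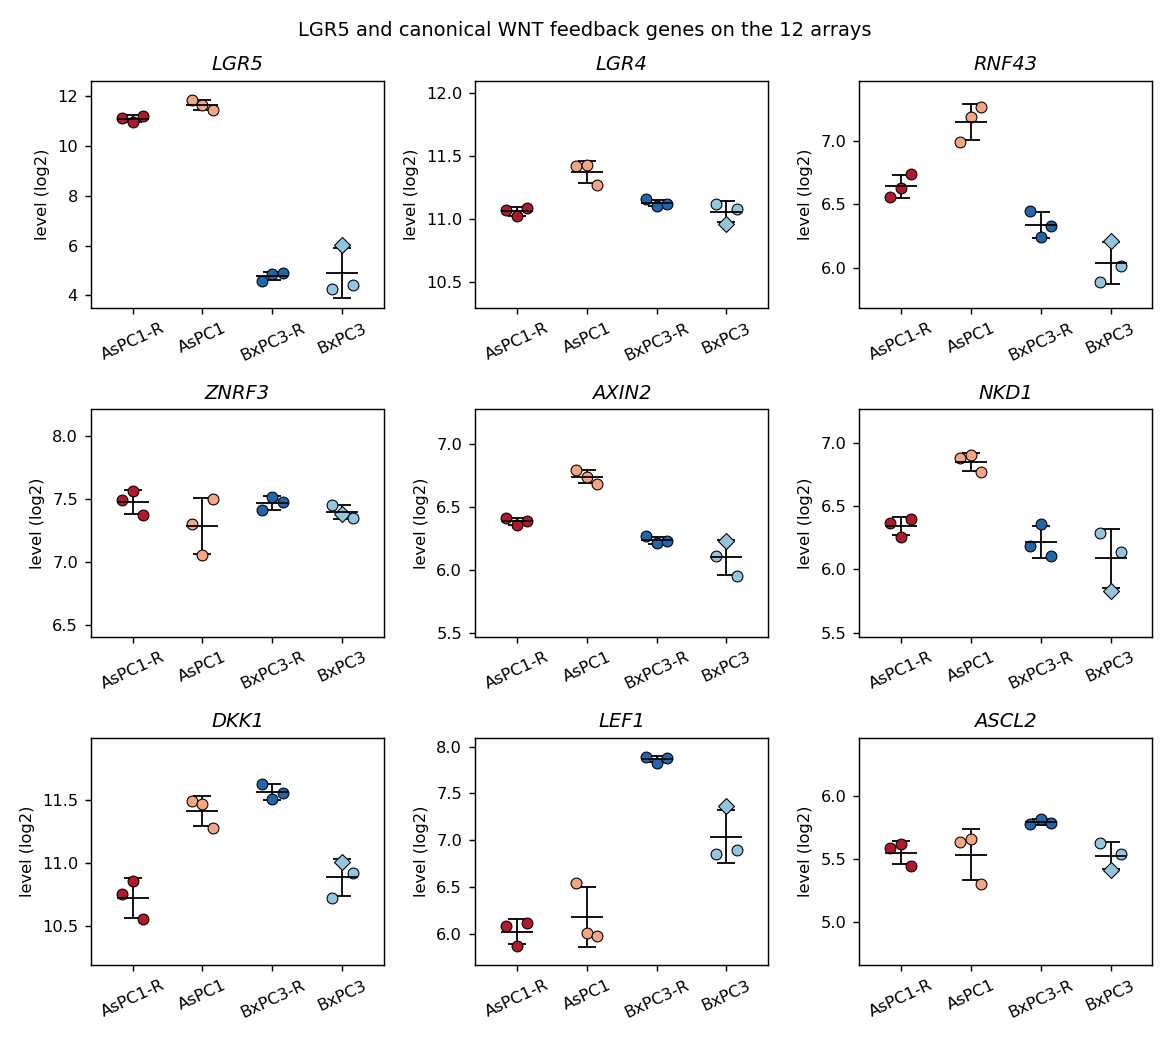
Levels (log2, vertical axes, each gene on its own scale) of the 9 genes on every array, with points for arrays, horizontal bars for the mean and error bars for the SD of 3 arrays; diamonds mark BxPC3 replicate 2. LGR5 sits at 10.95 or more on the AsPC1-R and AsPC1 arrays and at 6.04 or less on the BxPC3-R and BxPC3 arrays, while DKK1 is low in AsPC1-R and high in BxPC3-R against the parental lines.

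LGR5, the R-spondin receptor of stem cells, was the gene that separated the lines most widely. It read 11.14, 10.95 and 11.20 in AsPC1-R, against 11.85, 11.65 and 11.43 in AsPC1, and 4.60, 4.88 and 4.89 in BxPC3-R, against 4.25, 6.04 and 4.40 in BxPC3. All 6 arrays of the AsPC1 pair lay far above all 6 of the BxPC3 pair, and the 6.04 belongs to BxPC3 replicate 2, the array that stood apart. LGR5 was higher in AsPC1 than in BxPC3 by 6.75 (SE 0.33, adjusted p = 5.72e-10) and in AsPC1-R than in BxPC3-R by 6.31 (SE 0.33, adjusted p = 1.47e-09). Without BxPC3 replicate 2 the first difference was 7.32 (SE 0.14). The level in BxPC3 lies in the range of deleted genes, so the size of these differences is uncertain.

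Within the AsPC1 pair, LGR5 was lower on all 3 AsPC1-R arrays, by 0.55 on average, but the change did not pass the test on all arrays (log2 change -0.55, SE 0.33, 95% interval -1.26 to 0.17, adjusted p = 0.283). The SD of LGR5 was 0.13 in AsPC1-R, 0.21 in AsPC1, 0.17 in BxPC3-R and 0.99 in BxPC3, and the fit shares 1 spread among the groups. Without BxPC3 replicate 2, LGR5 fell in AsPC1-R (-0.55, SE 0.12, adjusted p = 0.00603), as it did with only the AsPC1-R and AsPC1 arrays in the fit (adjusted p = 0.0155). In BxPC3-R the change was -0.11 (SE 0.33, 95% interval -0.82 to 0.60, adjusted p = 0.879) with that array and 0.46 (SE 0.14, adjusted p = 0.0326) without it, both within the levels that deleted genes show. The change of LGR5 in AsPC1-R minus that in BxPC3-R was -0.44 (SE 0.47, adjusted p = 0.540) on all arrays and -1.01 (SE 0.18, adjusted p = 0.00135) without BxPC3 replicate 2.

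LGR4, the other R-spondin receptor, had high values in all groups and differed little. It read 11.07, 11.02 and 11.08 in AsPC1-R, against 11.42, 11.42 and 11.27 in AsPC1, and 11.16, 11.10 and 11.12 in BxPC3-R, against 11.12, 10.96 and 11.08 in BxPC3. The AsPC1 arrays lay above all others, and BxPC3-R and BxPC3 overlapped. LGR4 fell in AsPC1-R by 0.31 (SE 0.08, adjusted p = 0.0106), a 1.24-fold lower level, and this call was lost with only the AsPC1-R and AsPC1 arrays in the fit (adjusted p = 0.0514). In BxPC3-R the change was 0.07 (95% interval -0.09 to 0.24, adjusted p = 0.605), and the changes in the derivatives differed by -0.38 (SE 0.11, adjusted p = 0.0187).

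RNF43, a ligase that clears Frizzled receptors, moved in opposite directions in the derivatives. It read 6.56, 6.63 and 6.74 in AsPC1-R, against 6.99, 7.20 and 7.27 in AsPC1, and 6.44, 6.24 and 6.33 in BxPC3-R, against 5.89, 6.21 and 6.01 in BxPC3. AsPC1-R lay below AsPC1 and BxPC3-R above BxPC3, with no overlap in either pair, which narrowed the gap between the lines. RNF43 fell in AsPC1-R by 0.51 (SE 0.10, adjusted p = 0.00310). In BxPC3-R its change of 0.30 (SE 0.10, 95% interval 0.08 to 0.53) missed the threshold (adjusted p = 0.0570), and it passed without AsPC1 replicate 1 (adjusted p = 0.0464), without AsPC1 replicate 3 (0.0497) and without BxPC3 replicate 2 (0.0236). It also passed with arrays centred on their medians (0.0273), with array weights (0.0101), and without genes whose highest group mean stayed under the median of all values (0.0346). The RNF43 mean of 6.04 in BxPC3 lies under the 6.22 of the deleted CDKN2A. The changes in the derivatives differed by -0.81 (SE 0.15, adjusted p = 0.00100).

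ZNRF3, the second ligase of the same kind, passed the test in none of the comparisons on all arrays. It read 7.49, 7.56 and 7.38 in AsPC1-R, against 7.30, 7.05 and 7.50 in AsPC1, and 7.41, 7.52 and 7.48 in BxPC3-R, against 7.45, 7.38 and 7.35 in BxPC3. The groups overlapped in both pairs. The change was 0.19 (95% interval -0.03 to 0.42, adjusted p = 0.226) in AsPC1-R and 0.07 (95% interval -0.15 to 0.30, adjusted p = 0.717) in BxPC3-R. Without AsPC1 replicate 3 the change in AsPC1-R was 0.30 and passed (adjusted p = 0.0400).

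AXIN2 and NKD1, the inhibitors that act inside the cell, fell in AsPC1-R. AXIN2 read 6.42, 6.36 and 6.39 in AsPC1-R, against 6.79, 6.74 and 6.69 in AsPC1, and 6.27, 6.21 and 6.23 in BxPC3-R, against 6.11, 6.23 and 5.95 in BxPC3. Its AsPC1 arrays lay above all others, its AsPC1-R arrays came next, and BxPC3-R and BxPC3 overlapped. AXIN2 fell in AsPC1-R by 0.35 (SE 0.08, adjusted p = 0.00708), its change in BxPC3-R was 0.14 (95% interval -0.04 to 0.31, adjusted p = 0.299), and the changes differed by -0.49 (SE 0.12, adjusted p = 0.00632).

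NKD1 read 6.37, 6.26 and 6.40 in AsPC1-R, against 6.88, 6.90 and 6.77 in AsPC1, and 6.19, 6.36 and 6.11 in BxPC3-R, against 6.29, 5.83 and 6.14 in BxPC3. Its order was that of AXIN2, but AsPC1-R overlapped with BxPC3-R. NKD1 fell in AsPC1-R by 0.51 (SE 0.11, adjusted p = 0.00507), its change in BxPC3-R was 0.13 (95% interval -0.11 to 0.37, adjusted p = 0.504), and the changes differed by -0.64 (SE 0.16, adjusted p = 0.00862). Without BxPC3 replicate 2, which holds the lowest NKD1 value, the change in BxPC3-R was 0.0019 (adjusted p = 0.996) and the difference -0.51 (adjusted p = 0.0158).

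DKK1, the secreted inhibitor of LRP5 and LRP6, was the gene in which both derivatives changed, in opposite directions. It read 10.76, 10.86 and 10.56 in AsPC1-R, against 11.50, 11.47 and 11.28 in AsPC1, and 11.63, 11.51 and 11.56 in BxPC3-R, against 10.73, 11.01 and 10.92 in BxPC3. Neither pair overlapped: AsPC1-R lay below its parental line and BxPC3-R above its own. DKK1 fell in AsPC1-R by 0.69 (SE 0.10, adjusted p = 0.000277), a 1.61-fold lower level, and rose in BxPC3-R by 0.68 (SE 0.10, adjusted p = 0.000295), a 1.60-fold higher level. The changes differed by -1.37 (SE 0.15, adjusted p = 1.08e-05), and DKK1 passed in both pairs and for the difference without each of the 12 arrays in turn.

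LEF1, a transcription factor that carries β-catenin to its target genes, was the other gene that rose in BxPC3-R. It read 6.09, 5.87 and 6.12 in AsPC1-R, against 6.55, 6.01 and 5.98 in AsPC1, and 7.89, 7.83 and 7.88 in BxPC3-R, against 6.86, 7.36 and 6.90 in BxPC3. The BxPC3-R arrays were the highest, followed by BxPC3, while AsPC1-R and AsPC1 overlapped at the low end. LEF1 rose in BxPC3-R by 0.82 (SE 0.16, adjusted p = 0.00157), a 1.77-fold higher level, and by 0.99 (SE 0.15, adjusted p = 0.000465) without BxPC3 replicate 2. In AsPC1-R its change was -0.15 (95% interval -0.49 to 0.18, adjusted p = 0.535), and the changes differed by -0.98 (SE 0.22, adjusted p = 0.00456).

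ASCL2, the transcription factor of intestinal stem cells, had group means of 5.53 to 5.80, and it was the only one of the 9 genes whose highest group mean stayed under the median of all values. It read 5.59, 5.62 and 5.45 in AsPC1-R, against 5.64, 5.66 and 5.30 in AsPC1, and 5.78, 5.82 and 5.79 in BxPC3-R, against 5.63, 5.42 and 5.54 in BxPC3. The BxPC3-R arrays lay above all others, by little. The change was 0.02 (95% interval -0.20 to 0.24, adjusted p = 0.922) in AsPC1-R and 0.27 (95% interval 0.05 to 0.49, adjusted p = 0.0852) in BxPC3-R. The BxPC3-R change passed without AsPC1 replicate 3 (adjusted p = 0.0296), and so did the difference between the derivatives' changes, at -0.36 (adjusted p = 0.0382). The BxPC3-R change also passed with arrays centred on their medians (0.0342) and with quantile normalization once more (0.04). It passed too with only the groups compared (0.0429) and with array weights (0.00772). Under these settings ASCL2 was also lower in AsPC1-R than in BxPC3-R (adjusted p 0.0138 to 0.0443), against 0.0714 in the main fit.

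**Figure D2:**
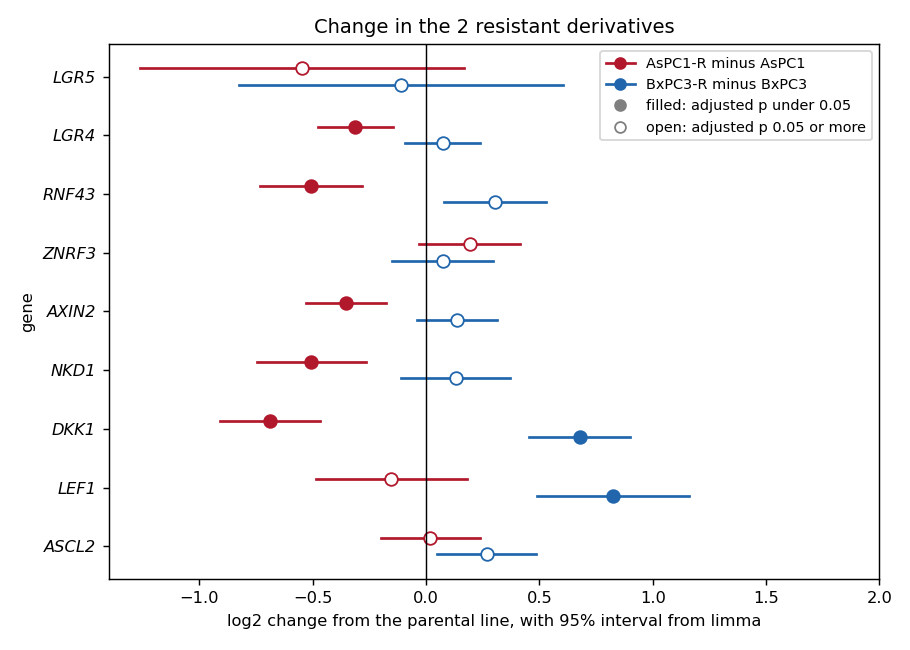
Change of each of the 9 genes (rows) in AsPC1-R against AsPC1 and in BxPC3-R against BxPC3, as log2 change on the horizontal axis, with points for the estimate from 3 arrays a group and lines for the 95% interval from limma. The AsPC1-R points of DKK1, RNF43, NKD1, AXIN2 and LGR4 are filled and left of 0, and the BxPC3-R points of DKK1 and LEF1 are filled and right of 0.

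The parental lines differed in most of these genes, and the derivatives in fewer. Between AsPC1 and BxPC3, LGR5, RNF43, NKD1, AXIN2, DKK1 and LGR4 were higher in AsPC1 and LEF1 was lower, 6 and 1 of 9 genes, where 27.7% of all genes were higher and 22.9% lower. The median of the 9 differences was 0.525, against 0.109 for all genes. Next to LGR5, the widest was that of RNF43, at 1.12 (SE 0.10, adjusted p = 6.55e-07), and LEF1 stood at -0.86 (SE 0.16, adjusted p = 0.000385). Between AsPC1-R and BxPC3-R, LGR5 and RNF43 were higher in AsPC1-R and DKK1 and LEF1 were lower, 2 and 2 of 9 genes, where 21.3% of all genes were higher and 22.0% lower. RNF43 was higher in AsPC1-R by 0.31 (SE 0.10, adjusted p = 0.0282), a call that was lost without AsPC1-R replicate 2 (adjusted p = 0.0599) or 3 (0.107) or BxPC3-R replicate 2 (0.112) or 3 (0.0697).

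The gap between the lines narrowed for 4 genes and turned round for DKK1. AXIN2 differed by 0.15 between AsPC1-R and BxPC3-R (adjusted p = 0.170), against 0.64 between AsPC1 and BxPC3. For NKD1 these gaps were 0.13 (adjusted p = 0.414) and 0.76, for LGR4 -0.07 (adjusted p = 0.539) and 0.32, and for RNF43 0.31 and 1.12. AXIN2 averaged 6.24 in BxPC3-R and 6.10 in BxPC3, NKD1 6.22 and 6.09, and RNF43 6.04 in BxPC3. These levels lie near the 6.22 of the deleted CDKN2A in BxPC3. A fall there might not show, and the sizes of the AXIN2, NKD1 and RNF43 gaps are uncertain. DKK1 stood at -0.84 between the derivatives (SE 0.10, adjusted p = 1.09e-05), against 0.53 between the parental lines (SE 0.10, adjusted p = 0.000768). LEF1 went the other way and its gap widened to -1.84 (SE 0.16, adjusted p = 2.44e-07) between the derivatives, against -0.86 between the parental lines. Its means in AsPC1-R and AsPC1 lay under the CDKN2A reading as well. The change of each gap is the same quantity as the difference between the derivatives' changes given above, which passed for these 6 genes.

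Ordered by level, AsPC1 was the highest group for LGR5, LGR4, RNF43, AXIN2 and NKD1, and BxPC3-R for LEF1, DKK1 and ASCL2. ZNRF3 was highest in AsPC1-R, but none of its neighbouring groups passed the test, nor did those of ASCL2. Of 27 pairs of groups that neighbour each other in these orders, 9 differed by limma. For RNF43 the order was AsPC1, AsPC1-R, BxPC3-R and BxPC3, and the last 2 missed the threshold (0.30, adjusted p = 0.0570). For LEF1 the order was BxPC3-R, BxPC3, AsPC1 and AsPC1-R, and the last 2 missed it too (0.15, adjusted p = 0.535). For DKK1, BxPC3-R and AsPC1 at the top were not told apart (0.15, adjusted p = 0.239), nor were BxPC3 and AsPC1-R at the bottom (0.16, adjusted p = 0.234).

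The other genes of the pathway were called at shares near those of all genes. Of 103 measured genes on lists of WNT ligands, receptors, inhibitors, cytoplasmic and nuclear components, further target genes and intestinal stem cell genes, 9 rose and 6 fell in AsPC1-R, and 11 rose and 8 fell in BxPC3-R. Over all genes 11.6% rose and 8.64% fell in AsPC1-R, and 9.75% rose and 11.0% fell in BxPC3-R, and the counts of the single lists below, of 19 genes or fewer, are to be read against these shares. Without BxPC3 replicate 2, 10 rose and 7 fell in AsPC1-R and 10 rose and 7 fell in BxPC3-R. These lists overlap in a few genes. Their median change was -0.056 in AsPC1-R and 0.058 in BxPC3-R, against -0.050 and 0.019 for all genes. 

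**Figure D3:**
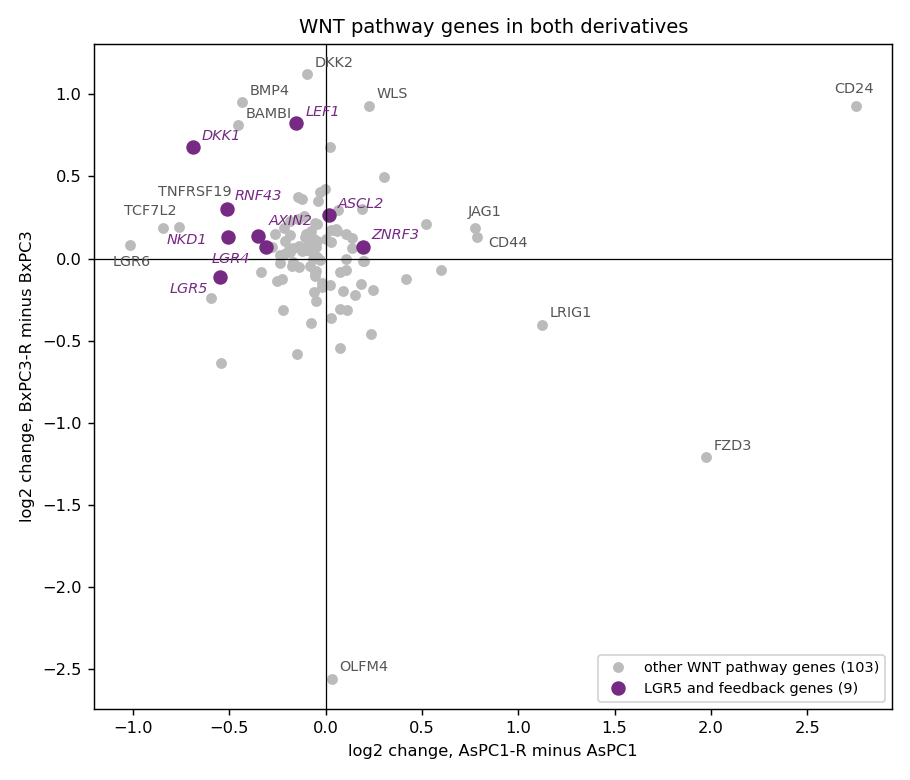
Log2 change in AsPC1-R against AsPC1 (horizontal axis) and in BxPC3-R against BxPC3 (vertical axis) for the 9 genes (purple) and 103 other WNT pathway genes (grey), each point from 3 arrays a group. DKK1 and RNF43 lie at the upper left, and FZD3, at 1.98 and -1.21, lies opposite them at the lower right.

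Among ligands and their secretion, none of 19 WNT genes passed in AsPC1-R, while 2 rose in BxPC3-R, WNT2B by 0.42 (SE 0.10, adjusted p = 0.00648) and WNT16 by 0.36 (SE 0.10, adjusted p = 0.0188). The WNT16 call was lost without BxPC3-R replicate 1 or 2 or BxPC3 replicate 1 or 3 (adjusted p up to 0.0895). In BxPC3, WNT16 averaged 6.03, under the 6.22 of the deleted CDKN2A, and WNT2B averaged 6.40, near it. WLS, the carrier that brings WNT proteins to the cell surface, had levels of 10.59 ± 0.07 in AsPC1-R, against 10.36 ± 0.17 in AsPC1, and of 11.33 ± 0.05 in BxPC3-R, against 10.40 ± 0.15 in BxPC3 (mean ± SD, n = 3). It rose in BxPC3-R by 0.93 (SE 0.10, adjusted p = 1.73e-05), and its change in AsPC1-R was 0.23 (adjusted p = 0.144), which passed without AsPC1 replicate 3 (0.32, adjusted p = 0.0337).

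Of 12 receptor genes, 3 rose in AsPC1-R and 3 fell in BxPC3-R, where 11.6% of all genes rose and 11.0% fell, and FZD3 was called in both. FZD3, a Frizzled receptor, read 8.23, 8.24 and 8.29 in AsPC1-R, against 6.04, 6.36 and 6.44 in AsPC1, and 6.76, 6.66 and 6.92 in BxPC3-R, against 7.90, 8.16 and 7.92 in BxPC3. It rose in AsPC1-R by 1.98 (SE 0.11, adjusted p = 2.57e-08) and fell in BxPC3-R by 1.21 (SE 0.11, adjusted p = 4.32e-06). The FZD3 mean of 6.28 in AsPC1 lies near the reading of deleted genes, so the size of the rise is uncertain. The Frizzled receptor gene FZD7 rose in AsPC1-R by 0.52 (SE 0.10, adjusted p = 0.00192). The third rise, FZD6 at 0.25 (SE 0.07, adjusted p = 0.0244), was lost without any one of the AsPC1-R arrays or without AsPC1 replicate 1 (adjusted p up to 0.0804), and with only the groups compared (0.0939). Of the other falls in BxPC3-R, LRP5 at -0.36 (SE 0.10, adjusted p = 0.0169) was lost without BxPC3-R replicate 2 or BxPC3 replicate 2 or 3 (up to 0.0961), and FZD5 at -0.31 (SE 0.09, adjusted p = 0.0184) without BxPC3-R replicate 1 or 2 or BxPC3 replicate 3 (up to 0.0851). LGR6, the third R-spondin receptor, read 7.75, 7.66 and 7.68 in AsPC1-R, against 8.78, 8.64 and 8.72 in AsPC1, and fell by 1.01 (SE 0.08, adjusted p = 6.61e-07). Its group means in BxPC3-R and BxPC3 were 6.33 and 6.24, near the reading of deleted genes, and missed the threshold (0.08, adjusted p = 0.552). None of the 4 R-spondin genes passed in either derivative.

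Of 15 further secreted and surface inhibitors, none passed in AsPC1-R and 1 rose in BxPC3-R. That gene, DKK2, a relative of DKK1, had a level of 6.57 ± 0.23 in BxPC3-R, against 5.45 ± 0.20 in BxPC3 (mean ± SD, n = 3), and rose by 1.12 (SE 0.13, adjusted p = 3.38e-05) from a level within the range of deleted genes. Of 15 genes of the destruction complex and its partners, 1 rose in each derivative and none fell: the kinase gene CSNK1D in AsPC1-R, by 0.42 (SE 0.08, adjusted p = 0.00182), and the kinase gene GSK3A in BxPC3-R, by 0.68 (SE 0.12, adjusted p = 0.00122). BTRC, which was named after its values were seen, passed in AsPC1-R without BxPC3 replicate 2, at -0.28 (adjusted p = 0.0332, against 0.0661 with it). CTNNB1, which encodes β-catenin and was named after its values were seen, did not pass in AsPC1-R (0.0023, 95% interval -0.16 to 0.16) or in BxPC3-R (0.12, 95% interval -0.04 to 0.28).

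Among 13 nuclear partners of β-catenin, 2 fell and none rose in AsPC1-R, and 2 rose and 1 fell in BxPC3-R, where 8.64% of all genes fell in AsPC1-R and 9.75% rose in BxPC3-R. TCF7L2, a relative of LEF1 that works with β-catenin in the intestine, read 10.57, 10.40 and 10.50 in AsPC1-R, against 11.53, 11.32 and 11.14 in AsPC1, and fell by 0.84 (SE 0.11, adjusted p = 6.61e-05). In BxPC3-R its change was 0.19 (SE 0.11, adjusted p = 0.269). The corepressor gene TLE1 also fell in AsPC1-R, by 0.60 (SE 0.15, adjusted p = 0.0136), but not without AsPC1-R replicate 2 (-0.40, adjusted p = 0.0549) or AsPC1 replicate 1 (-0.50, adjusted p = 0.0636). In BxPC3-R the corepressor gene TLE3 rose by 0.41 (SE 0.08, adjusted p = 0.00202) and the coactivator gene BCL9 fell by 0.39 (SE 0.08, adjusted p = 0.00360). The second rise, CTNNBIP1 at 0.35 (SE 0.11, adjusted p = 0.0431), was lost without AsPC1-R replicate 2 or 3, AsPC1 replicate 1, BxPC3-R replicate 1 or 3, or BxPC3 replicate 2 or 3 (adjusted p up to 0.207), and with only the groups compared (0.0785).

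Further WNT target genes moved both ways within each derivative. Of 15, 3 rose and 3 fell in AsPC1-R, where the adhesion receptor gene CD44 rose by 0.79 (SE 0.08, adjusted p = 5.44e-06), the Notch ligand gene JAG1 by 0.77 (SE 0.10, adjusted p = 7.89e-05) and the cyclin gene CCND1 by 0.60 (SE 0.10, adjusted p = 0.000431). TNFRSF19 fell by 0.76 (SE 0.14, adjusted p = 0.00130) and MMP7 by 0.54 (SE 0.11, adjusted p = 0.00379). The third fall, BAMBI at -0.45 (SE 0.14, adjusted p = 0.0297), was lost without any one of the AsPC1-R arrays or without AsPC1 replicate 1 or 3 (adjusted p up to 0.101). In BxPC3-R 3 rose and 2 fell, with the growth factor gene BMP4 at 0.95 (SE 0.16, adjusted p = 0.000695), BAMBI at 0.81 (SE 0.14, adjusted p = 0.000585), the matrix protease gene MMP7 at -0.63 (SE 0.11, adjusted p = 0.00111) and MYC at -0.58 (SE 0.10, adjusted p = 0.000572). BMP4 averaged 6.66 in BxPC3-R and 5.71 in BxPC3, the latter within the range of deleted genes.

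Of 12 genes of intestinal stem cells, which share CD44, TNFRSF19, PROM1 and SOX9 with the target genes, 3 rose and 1 fell in AsPC1-R and 1 rose and 2 fell in BxPC3-R. CDCA7 also passed in AsPC1-R without BxPC3 replicate 2, at 0.23 (adjusted p = 0.0481, against 0.0580 with it). OLFM4, a marker that accompanies LGR5 in human crypts, read 5.61, 5.76 and 5.62 in BxPC3-R, against 8.47, 8.46 and 7.73 in BxPC3, and fell by 2.56 (SE 0.16, adjusted p = 7.34e-08). In AsPC1-R and AsPC1, the lines in which LGR5 was high, OLFM4 averaged 4.95 and 4.91 (0.03, adjusted p = 0.903). CD24 rose in both derivatives, by 2.75 (SE 0.13, adjusted p = 2.29e-09) in AsPC1-R and 0.93 (SE 0.13, adjusted p = 0.000112) in BxPC3-R, and the receptor antagonist gene LRIG1 rose in AsPC1-R by 1.12 (SE 0.14, adjusted p = 6.93e-05). CD24 averaged 6.46 in AsPC1-R and 3.71 in AsPC1, the latter under the readings of deleted genes, so the size of that rise is uncertain. LRIG1 averaged 6.31 in AsPC1, near the highest of those readings.

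LGR5, LEF1 and RNF43 had the widest ranges of group means, 6.86, 1.84 and 1.12, and for each the 5 genes of most similar pattern were found over the 12 arrays, by the mean absolute difference after each gene was centred on its own mean. For LGR5 they were ANXA13, TM4SF18, ME2, MUC17 and VCAN, with mean differences of 0.24 to 0.33. Each of these 5 was high in AsPC1-R and AsPC1, at 10.34 or more, and at 7.23 or less in BxPC3-R and BxPC3. For LEF1 they were PODXL, TRIM28, PAX7, ANKH and ZNF180 (0.14 to 0.17), and for RNF43 ARHGEF39, CRADD, FER, HOXC11 and NCMAP (0.08 to 0.10). These are descriptions of 4 groups on 12 arrays.

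**Figure D4:**
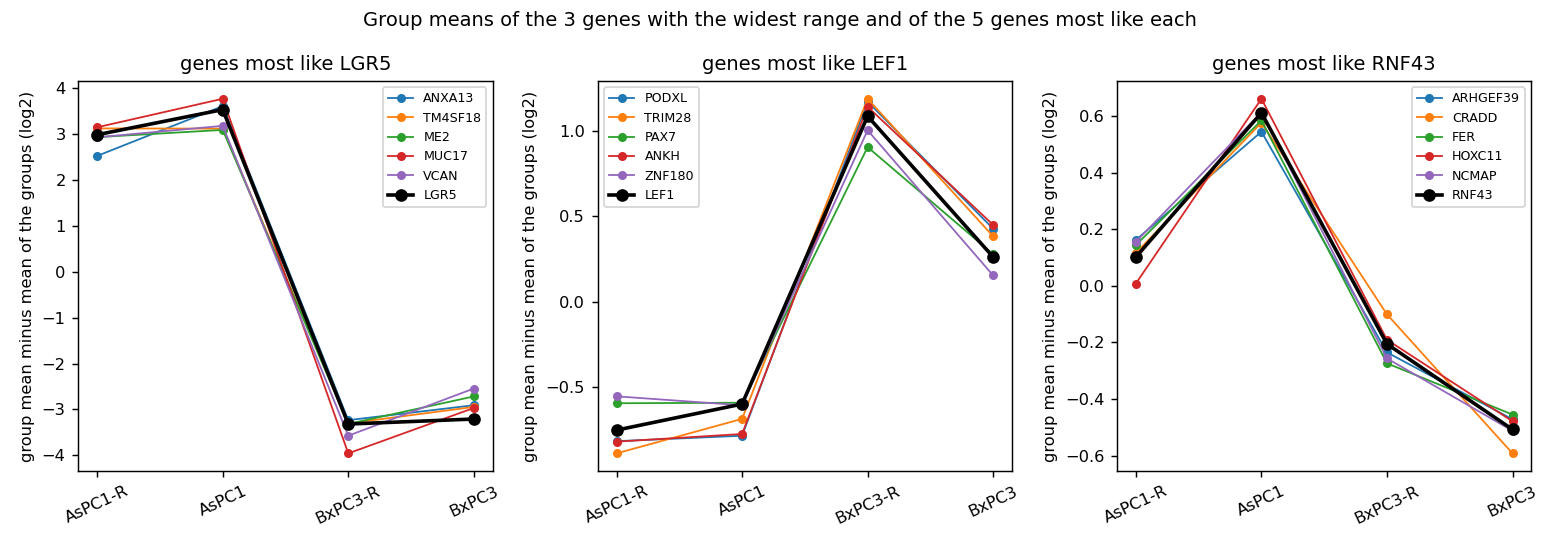
Group means of LGR5, LEF1 and RNF43 (black) and of the 5 genes most like each (colours), as log2 level minus the mean of the 4 groups (vertical axis), each point from 3 arrays, for AsPC1-R, AsPC1, BxPC3-R and BxPC3 along the horizontal axis. LGR5 and its like genes split between the lines, LEF1 peaks in BxPC3-R, and RNF43 steps down from AsPC1 to AsPC1-R, BxPC3-R and BxPC3.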

How the data were processed

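Total RNA of 12 samples was amplified, labelled with biotin and hybridized to Affymetrix arrays, per the labels' protocols. The deposited values are log2 levels per probe set, made by the authors with Affymetrix Expression Console and RMA, per the submitters' processing notes. Program versions and the build are not given in the sources used. Of 33297 probe sets, the 19460 with 1 gene symbol were used, and for the 769 genes with several the one with the highest mean over the 12 arrays. This gave 18417 genes, and none was filtered out. limma 3.58.1 in R 4.3.3 (lmFit, eBayes) was fitted on all arrays with a mean per group, two-sided, with Benjamini-Hochberg adjustment over all genes (8 residual and 5.47 prior degrees of freedom). The steps were tested on simulated data. Array medians were near equal after RMA, so the values hold no measure of depth.

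The genes and lists were chosen with earlier results of these data known. Named are all 9 genes, up to 4 called genes with the largest change per pathway list and derivative, and 5 like genes for the 3 genes of widest range. Of 107 listed pathway genes, 103 were measured. Replicate numbers were not used to pair the samples in the main fit.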

Additional observations from a re-analysis of the deposited data

Results flagged for a closer look

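Feedback and pathway genes whose changes are given above are listed here where limma's test of the difference itself passed. Values are the change in AsPC1-R (against AsPC1) minus that in BxPC3-R (against BxPC3). Of all 103 measured pathway genes, 11 lay above and 12 below in this test, where 14.1% of all genes lay above and 11.3% below. Without BxPC3 replicate 2, 10 lay above and 12 below. Of the feedback genes these were DKK1 at -1.37, LEF1 at -0.98, RNF43 at -0.81, NKD1 at -0.64, AXIN2 at -0.49 and LGR4 at -0.38. Among ligands, secretion and receptors, WNT2B stood at -0.43, WNT16 at -0.48, WLS at -0.71, FZD3 at 3.19, FZD6 at 0.44 and LGR6 at -1.10. Among inhibitors, cytoplasmic and nuclear components, DKK2 stood at -1.22, CSNK1D at 0.55, GSK3A at -0.66, TCF7L2 at -1.03 and TLE3 at -0.44. Among target genes, CD44 stood at 0.65, JAG1 at 0.59, TNFRSF19 at -0.95, CCND1 at 0.67, BMP4 at -1.38, BAMBI at -1.27 and MYC at 0.43. Among stem cell genes, CD24 stood at 1.82, LRIG1 at 1.53, OLFM4 at 2.59 and CDCA7 at 0.69.

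FZD3 had the largest of these differences (SE 0.16, adjusted p = 6.40e-09), followed by OLFM4 (SE 0.22, adjusted p = 1.33e-06). The difference for WNT2B was lost without AsPC1-R replicate 1, AsPC1 replicate 1 or 2, BxPC3-R replicate 1 or 3, or BxPC3 replicate 1 or 2 (adjusted p up to 0.0966). That for MYC was lost without AsPC1-R replicate 1 or 2, AsPC1 replicate 3, BxPC3-R replicate 2 or 3, or BxPC3 replicate 1 or 2 (up to 0.078), and that for WNT16 without AsPC1-R replicate 2, AsPC1 replicate 1 or BxPC3-R replicate 1 (up to 0.0612).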

How the results depend on the processing

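Each change of the 9 genes was recomputed under 8 other settings and with each of the 12 arrays left out. Of 886 such values, 857 kept their side of the threshold, 6 calls were lost, 22 were gained, and 1 turned round: LGR5 in BxPC3-R, at 0.460 without BxPC3 replicate 2 (-0.433 to 0.460 over the arrays left out). All calls between AsPC1 and BxPC3 were kept. Rises in BxPC3-R, 2 of 9, counted 4 with arrays centred on their medians and 5 with array weights, and the genes higher in AsPC1-R than in BxPC3-R, 2, counted 1 with quantile normalization once more; the cause was not tested. With arrays left out in turn, AsPC1-R had 0 to 1 rises and 5 to 6 falls, and BxPC3-R 2 to 4 rises and 0 falls. The change in AsPC1-R lay below that in BxPC3-R for 6 to 7 genes. In level, 1 to 2 genes were higher and 2 to 3 lower in AsPC1-R than in BxPC3-R, and 7 to 11 neighbouring groups differed. The mean over probe sets could change none of the 9 genes, each of which has 1. Over all genes, array weights called 3280 rises and 3076 falls in BxPC3-R, against 1795 and 2031. They called 3326 genes whose change in AsPC1-R lay below that in BxPC3-R, against 2090. Of the genes whose changes in the derivatives differed, 55.4% had the higher change in AsPC1-R, but 44.4% with centred arrays. Of those called in BxPC3-R against BxPC3, 46.9% rose, but 56.7% with centred arrays. Of 1711 values of named pathway genes, 51 calls were lost and 37 gained. With the replicate number as a block, AsPC1-R had 5 falls and BxPC3-R 2 rises, as without it, and no call of the 9 genes changed, while the call of CTNNBIP1 in BxPC3-R was lost (adjusted p = 0.0616). Same-numbered samples of different groups deviated with correlations of -0.24 to 0.34, and 5 of 12 arrays correlated best with their own number. With 3 arrays a group, these correlations cannot settle whether same-numbered samples were handled together. Levels near those of deleted genes limit what LGR5 and RNF43 in BxPC3, LEF1 in AsPC1-R and AsPC1, and AXIN2, NKD1 and ASCL2 can show.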
